A study of Homo sapiens with 12 samples.

Results

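The genes described here are interferon-stimulated genes and genes of antigen presentation, 58 in all, taken from a list of gene symbols. Of the 58, 40 were among the 8842 genes for which expression values were deposited. The other 18 were IFIT1, IFIT2, IFIT3, IFI6, IFI35, ISG15, MX1, OAS2, IRF3, IRF7, DHX58, HERC6, BST2, TRIM14, TRIM21, TRIM25, GBP1 and ADAR, which were not analysed here. RNA-seq had been performed on 12 libraries of HepG2 and LM3, both established human liver cancer cell lines. Each line had been transfected with an siRNA against the long non-coding RNA FASRL (siFASRL) or with a negative control siRNA (siNC), with 3 replicates per group, and harvested 48 h later. Which siRNA sequence was used is not stated. FASRL itself was not among the listed genes, so its level could not be read from these values, and the study's own check of the knockdown is not part of them. The comparison asks whether siFASRL lowered these genes, and whether a decrease was confined to LM3.

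Interferons bind receptors at the cell surface and, through the JAK kinases, activate transcription factors such as STAT2, which joins IRF9 in a complex that binds interferon-stimulated response elements. The genes switched on in this way encode sensors of viral RNA, transcription factors, enzymes that block viral replication, and the machinery that loads peptides onto HLA class I molecules. In liver cells this program acts against hepatitis viruses, and in liver tumors class I molecules present tumor peptides to T cells.

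Expression was given as normalized RSEM values, which take transcript length into account, so that levels can be compared between genes. Sequencing depth is unknown, because the values are not counts. The summed value of the listed genes was 347211, 355094 and 350069 in HepG2 siFASRL and 333193, 334088 and 338379 in HepG2 siNC. In LM3 it was 346884, 348573 and 347042 with siFASRL and 316534, 320399 and 321859 with siNC. The sums were higher in every siFASRL library than in any siNC library of the same line. The median value of the 40 listed members was 13.7, 12.5 and 12.3 in HepG2 siFASRL and 15.0, 13.3 and 13.9 in HepG2 siNC. In LM3 the median member was at 5.80, 5.68 and 5.62 with siFASRL and at 9.90, 11.0 and 10.9 with siNC. The medians of the 2 groups overlapped in HepG2 and lay apart in LM3.

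The identity of the lines was checked with marker genes. Of 18 hepatocyte markers 16 were listed, and all 16 were at 1 or above in every HepG2 library, with SERPINA1 the most abundant. In LM3 2 to 4 of the 16 were at 1 or above, RBP4 was the most abundant, and ALB lay between 0 and 0.62. Together the hepatocyte markers were at 2800, 2819 and 2862 in HepG2 siFASRL and 5308, 5235 and 4784 in HepG2 siNC. In LM3 they summed to 26.0, 25.2 and 23.7 with siFASRL and to 32.2, 41.6 and 41.0 with siNC. Of the 16, 15 were called lower in HepG2 (44.3% of 8144 genes) and APOA2 higher (44.8%). In LM3 HNF4A and RBP4 alone could be tested, and only HNF4A was called lower, at 6.32, 7.64 and 6.17 with siFASRL against 14.4, 14.4 and 14.2. The part of these markers in the results was not tested. Of 12 leukocyte markers 4 were listed (PTPRC was not), with CD68 or LYZ the most abundant, and they summed to 93.3 to 102 in HepG2 siFASRL, 124 to 130.5 in HepG2 siNC, 18.5 to 19.1 in LM3 siFASRL and 15.1 to 18.2 in LM3 siNC. The 5 of 8 stromal and endothelial markers listed summed to 27.8 to 30.9 in HepG2 siFASRL and 56.1 to 58 in HepG2 siNC, with COL1A1 or COL3A1 the most abundant, and to 4.8 to 5.94 and 13.5 to 15.3 in LM3, with COL1A1. The 3 of 4 epithelial markers listed, with KRT18 the most abundant in every library, summed to 752 to 793 in HepG2 siFASRL, 699.9 to 770.2 in HepG2 siNC, 732 to 788 in LM3 siFASRL and 860 to 1004 in LM3 siNC. Among them CDH1 and EPCAM were called lower in HepG2 (44.3% of all genes) and EPCAM and KRT18 in LM3 (43.5%). In bulk RNA, fewer cells of a type and less RNA per cell cannot be told apart.

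Within LM3 siNC, the hepatocyte markers summed to more in replicates 2 and 3 than in replicate 1. ALB, low in all of them, was at 0.62 and 0.40 against 0.06 in replicate 1. LM3 was also fitted with replicate 1 as its single control, and the members whose call changed are given with their effects below. In that comparison the lone control was assumed to vary like the other group. OASL, at 198 to 220.2 in HepG2, was at 1.73, 2.08 and 1.66 in LM3 siNC replicates 1, 2 and 3. Why the markers differed between these replicates was not tested.

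Promoters of the members were searched on both strands for GAAANNGAAA, the core of the interferon-stimulated response element. The search covered the 250 bases upstream of the start in the first RefSeq promoter entry of each gene. Promoter sequences were available for 32 of the 40 listed members, and 17 of these (53.1%) held the motif, against 839 of 27305 promoters in all (3.07%). Among members lower in both lines 5 of 14 held it, among those higher in both lines 3 of 3, and among those lower in LM3 and not in HepG2 3 of 6. The sequences below are shown because their genes span the responses that follow, from genes lower in both lines (IFITM1, PARP14, TAPBP, B2M) to those lower in LM3 and not in HepG2 (OAS3, HERC5), higher in both (ISG20) or below the test's minimum in LM3 (DDX60, IFIH1). Capitals mark the motif, and each window is written 5′ to 3′ on the strand of its gene.
DDX60: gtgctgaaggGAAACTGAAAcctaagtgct
IFIH1: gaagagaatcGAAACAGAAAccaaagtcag
OAS3: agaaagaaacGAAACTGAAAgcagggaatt
IFITM1: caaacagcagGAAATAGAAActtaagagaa
ISG20: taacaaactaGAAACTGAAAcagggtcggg
HERC5: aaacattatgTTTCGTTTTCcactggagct
PARP14: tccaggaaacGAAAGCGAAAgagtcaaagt
TAPBP: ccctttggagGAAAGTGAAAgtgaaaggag
B2M: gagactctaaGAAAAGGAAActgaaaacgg
In build GRCh38.p14 these windows lie at chr4:168318821-168318850 (minus strand), chr2:162318686-162318715 (minus), chr12:112938321-112938350 (plus), chr11:313990-314019 (plus), chr15:88638937-88638966 (plus), chr4:88457035-88457064 (plus), chr3:122680800-122680829 (plus), chr6:33314079-33314108 (minus) and chr15:44711363-44711392 (plus). The DDX60 and ISG20 windows lie inside the RefSeq spans of their genes, chr4:168216294-168325979 and chr15:88635632-88656483. They are thus not upstream of the outermost start of the gene. HERC5 carries the motif in the reverse direction. In the TAPBP and B2M windows another match overlaps the one in capitals and is left partly in lower case. DDX60 and OAS3 hold 2 matches each and IFIH1 and HERC5 3, of which 1 is shown. No match was found in the windows of OAS1, STAT2, IRF1, IRF9, DDX58, DTX3L, HLA-B and HLA-C, among others. A match is a description of these letters, not evidence of binding.

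In HepG2, 23 of the 40 members were lower with siFASRL at an adjusted p under 0.05, where 44.3% of the 8144 genes tested were lower. A further 12 were higher, where 44.8% of all genes were higher. The remaining 5, IFITM2, OASL, OAS3, SAMD9 and IRF9, passed in neither direction. GBP2 reached 1 in siNC libraries only, so that only a decrease could be called for it, and without it 22 of 39 were lower. The share of lower members was above that of all genes and the share of higher members below it. The median log2 fold change, siFASRL against siNC, was -0.47 over the members and 0.10 over all genes tested. DTX3L and TAPBP fell to a log2 fold change of -1 or below (6.79% of all genes), and ISG20 alone rose to 1 or above (3.61%). Among listed genes with a mean of at least 5, a log2 ratio between -0.20 and -0.04 was found for 5 of 6367 (0.0785%) in HepG2 and 578 of 5937 (9.74%) in LM3. The list may therefore have been preselected on change in HepG2, and the HepG2 shares and the comparisons between lines hold for the listed genes only. Without HepG2 siNC replicate 3, no member reached 1 or above, so the count of 1 became 0.

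In LM3, 33 members reached 1 in at least 3 of the 6 libraries and were tested. Of these, 25 were lower (43.5% of 7483 genes tested) and 4 were higher, HLA-E, IFIT5, IFITM3 and ISG20 (33.9%). TAP1, HLA-C, IRF2 and NMI passed in neither direction. OASL and DDX58 reached 1 in siNC libraries only, so that only a decrease could be called for them in LM3, and without them 23 of 31 were lower. The median log2 fold change was -0.53 over the members and -0.06 over all genes. DTX3L, IFITM1, OAS1, STAT2, TAPBP and USP18 fell to -1 or below (6.20%). Limma called 0 of 33 members at 1 or above (1.42%), and the count at an unadjusted p under 0.05 was also 0, with IFIT5 the highest at 0.38. The 7 members not tested in LM3 were UBE2L6, GBP2, IFI27, IFI44, RSAD2, IFIH1 and DDX60.

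The decrease was not confined to LM3. Among the 33 members tested in both lines, 17 were lower in both (36.0% of 7349 genes) and 3, IFIT5, IFITM3 and ISG20, were higher in both (29.6%). Another 8 were lower in LM3 and not in HepG2 (7.17%), namely DDX58, HERC5, IFITM2, IRF9, OAS1, OAS3, OASL and SAMD9. Among them DDX58 and OASL passed the minimum in LM3 through siNC only, so their place in this count was open to a decrease alone. The difference between the lines itself was called for 7 of these 8 (6.99%), IFITM2 being the exception, whose difference was called only after quantile normalization (-0.20). In the other direction, HLA-C, HLA-E and NMI were lower in HepG2 and not in LM3 (5.27%), each with the difference called (4.15%). Of the 17 lower in both, EIF2AK2, IFITM1, STAT2 and USP18 fell further in LM3 (5.76%), and B2M, HLA-B and IRF1 fell further in HepG2 (7.47%). The former count was 1 (USP18) after quantile normalization, and 2 with a minimum of 5 or with LM3 siNC replicate 1 alone. The latter was 0 with median-of-ratios scaling, 1 without LM3 siFASRL replicate 1 (IRF1) or with LM3 siNC replicate 1 alone (NMI), and 5 with no filter. For the other 10, DTX3L, PARP9, PARP10, PARP12, PARP14, PML, SAMHD1, SP100, TAPBP and XAF1, the difference was not called (22.8%), which does not show that the effects were equal. DDX58, HERC5, HLA-E and OAS1 moved in opposite directions with the difference called (5.31%), DDX58 being one of the genes that could only be called lower in LM3. This count was 2 without HepG2 siFASRL replicate 2 or HepG2 siNC replicate 2, with a minimum of 5 and with either rescaling, HLA-E being among the 2 each time. Members lower in LM3 and not in HepG2 numbered 5 with a minimum of 5 and without LM3 siNC replicate 3. A minimum of 5 left 25 members tested in both lines, whereas 40 were tested with no filter or in one fit. Those lower in HepG2 and not in LM3 numbered 6 with median-of-ratios scaling, and 5 in one fit of both lines and without LM3 siFASRL replicate 1. Over the 33 members the effect was lower in LM3 for 14 (27.5% of 7349 genes) and higher for 6 (15.0%). Over all 40 these counts were 16 (27.2% of 8285 genes) and 9 (19.5%), of which DDX60, GBP2, IFI44, IFIH1 and RSAD2 were under the minimum in LM3. The median difference was -0.19 over the 40 members and -0.05 over all genes, and -0.22 over the 33 and -0.06 over genes tested in both lines.

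**Figure D1:**
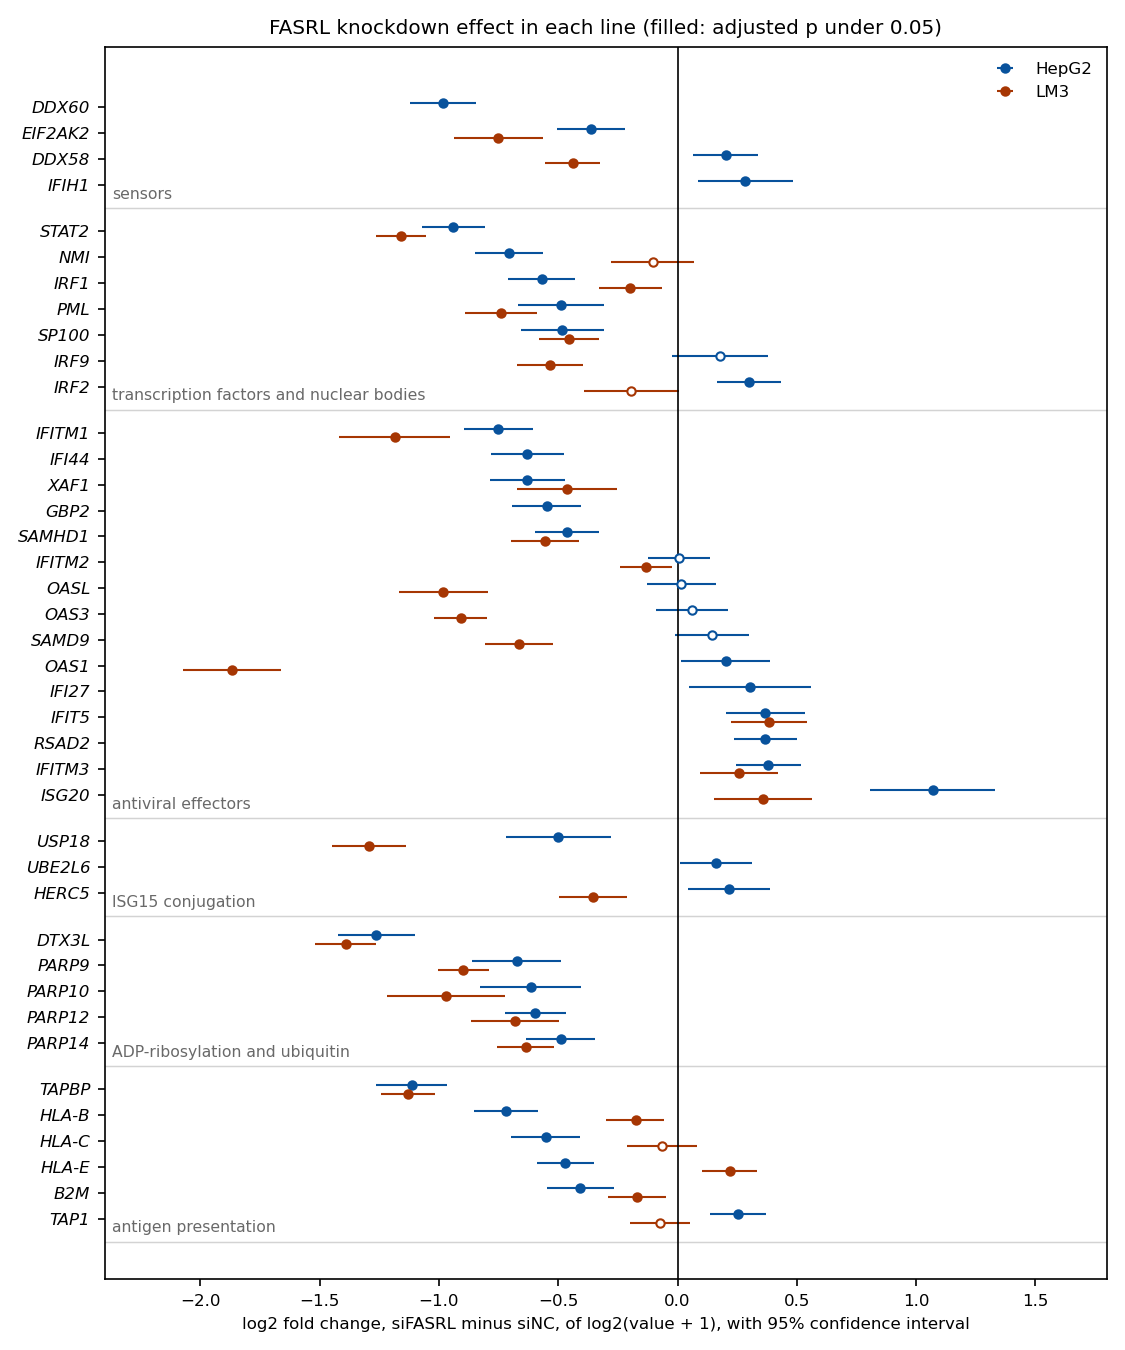
Log2 fold change, siFASRL minus siNC, of each listed member by role, with 95% confidence intervals from limma (HepG2 blue, LM3 brown, filled where the adjusted p was under 0.05). Genes of ADP-ribosylation lie below 0 in both lines, whereas most antiviral effectors lie below 0 in LM3 and on both sides of 0 in HepG2.

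**Figure D2:**
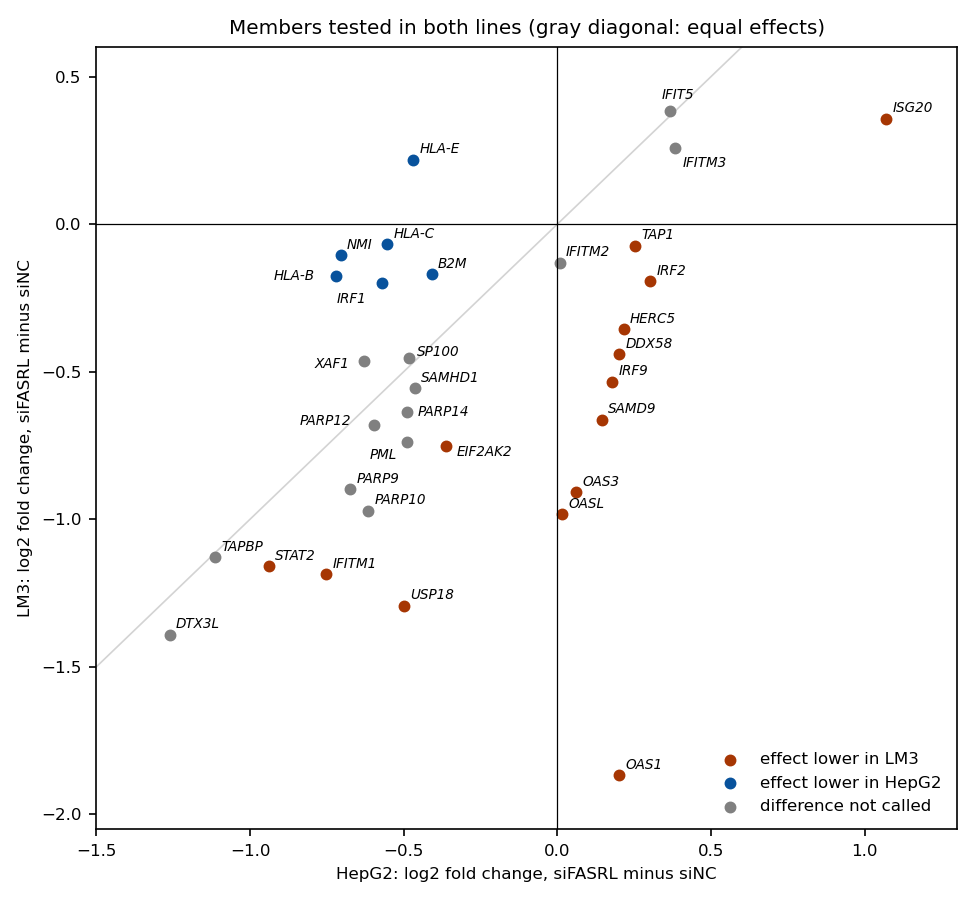
Log2 fold change in LM3 (vertical) against that in HepG2 (horizontal) for the 33 members tested in both lines, colored by the test of the difference between lines. OAS1 lies farthest below the diagonal of equal effects, and HLA-E lies below 0 in HepG2 and above 0 in LM3.

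Among the sensors of viral RNA, 4 were listed. DDX60 (gene 55601), a helicase that aids RNA sensing, had values of 10.9, 11.8 and 11.8 in HepG2 siFASRL and 22.9, 22.9 and 25.1 in HepG2 siNC. The siFASRL values lay far below the controls without overlap, and DDX60 fell with a log2 fold change of -0.98 (95% CI -1.12 to -0.84, adjusted p = 5.56e-07). In LM3 DDX60 was listed at 0.25, 0.30 and 0.26 with siFASRL and 0.65, 0.64 and 0.59 with siNC, below the minimum for the test. Against siNC the siFASRL mean was 48.5% in HepG2 and 43.1% in LM3, so the ratios were similar. The difference between lines was 0.63 on log2(value + 1) and 0.06, not called, with a pseudocount of 0.1.

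DDX58 (gene 23586), which encodes the RNA sensor RIG-I, was at 8.03, 8.81 and 8.38 in HepG2 siFASRL and 7.61, 7.07 and 6.88 in HepG2 siNC. In LM3 it was at 0.74, 0.68 and 0.74 with siFASRL and 1.33, 1.41 and 1.26 with siNC. With siFASRL it lay above the controls in HepG2 and below them in LM3, without overlap, and in LM3 it reached 1 with siNC only. DDX58 rose in HepG2, 0.20 (95% CI 0.07 to 0.34, adjusted p = 0.0105), and fell in LM3, -0.44 (95% CI -0.55 to -0.33, adjusted p = 6.28e-05), and the difference was -0.64 (95% CI -0.80 to -0.48, adjusted p = 1.33e-05). The rise in HepG2 was not called without HepG2 siFASRL replicate 2 (0.17), and the fall in LM3 was -0.001 and not called after quantile normalization. IFIH1, which encodes the sensor MDA5, rose in HepG2 (0.28, adjusted p = 0.0127), and by less without HepG2 siNC replicate 2 (0.18). In LM3 IFIH1 was at 0.17, 0.25 and 0.15 with siFASRL and 1.15, 0.94 and 1.03 with siNC, groups that did not overlap but lay too low to be tested within LM3. Its difference between lines was -1.06 (95% CI -1.31 to -0.81, adjusted p = 7.66e-06). EIF2AK2, which encodes the kinase PKR that halts translation, fell in both lines, with a log2 fold change of -0.36 in HepG2 and -0.75 in LM3. After quantile normalization its difference between lines was -0.28 and not called.

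Of the transcription factors and nuclear body genes, 7 were listed, of which 5 fell and 1 rose in HepG2 (44.3% and 44.8% of all genes) and 5 fell in LM3 (43.5%). STAT2 (gene 6773), the partner of IRF9 in the interferon-activated complex, was at 7.33, 7.44 and 7.53 in HepG2 siFASRL and 15.5, 14.2 and 15.9 in HepG2 siNC. In LM3 STAT2 was at 4.86, 4.88 and 4.92 with siFASRL and 12.2, 12 and 12.2 with siNC. In both lines every siFASRL library was far below every control. STAT2 fell in HepG2, -0.94 (95% CI -1.07 to -0.81, adjusted p = 5.6e-07), and in LM3, -1.16 (95% CI -1.26 to -1.05, adjusted p = 3.38e-07). The difference of -0.22 (adjusted p = 0.0166) was -0.15 and not called with median-of-ratios scaling, was 0.002 after quantile normalization, and was -0.23 and not called with LM3 siNC replicate 1 alone.

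IRF9 (gene 10379), the DNA-binding subunit of the same complex, was at 28.5, 36.6 and 35.6 in HepG2 siFASRL and 30.1, 28.3 and 29.7 in HepG2 siNC. IRF9 in LM3 was at 4.18, 4.7 and 4.79 with siFASRL and 6.72, 7.29 and 7.11 with siNC. The HepG2 groups overlapped through siFASRL replicate 1, and the LM3 groups did not overlap. IRF9 fell in LM3, -0.53 (95% CI -0.67 to -0.40, adjusted p = 6.17e-05), and had 0.18 (95% CI -0.02 to 0.38, adjusted p = 0.0824) in HepG2. Without HepG2 siFASRL replicate 1 it was called higher in HepG2, at 0.29, and without siFASRL replicate 2 it was 0.11. The difference between lines was -0.71 (95% CI -0.96 to -0.46, adjusted p = 0.000239).

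IRF1 (gene 3659), an activator of interferon-stimulated and HLA class I genes, was at 5.63, 5.75 and 6.04 in HepG2 siFASRL and 8.99, 9.8 and 8.56 in HepG2 siNC. In LM3 IRF1 was at 9.08, 9.44 and 8.95 with siFASRL and 9.95, 10.8 and 11.2 with siNC. The siFASRL values lay below the controls in both lines, with a wider distance in HepG2. IRF1 fell in HepG2, -0.57 (adjusted p = 1.94e-05), as it did in LM3, -0.20 (adjusted p = 0.0118), and the difference was 0.37 (95% CI 0.20 to 0.55, adjusted p = 0.00232). The fall in LM3 was not called with median-of-ratios scaling (-0.13), after quantile normalization (-0.04) or with LM3 siNC replicate 1 alone (-0.11).

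NMI (gene 9111), whose protein binds STAT proteins, was at 2.5, 2.42 and 2.56 in HepG2 siFASRL and 4.89, 4.27 and 4.95 in HepG2 siNC. NMI in LM3 was at 14.2, 13.2 and 14.8 with siFASRL and 16.4, 15.7 and 13.6 with siNC. The groups lay apart in HepG2 and overlapped in LM3 through siNC replicate 3. NMI fell in HepG2, -0.70 (95% CI -0.85 to -0.56, adjusted p = 5.04e-06), and had -0.10 (95% CI -0.28 to 0.07, adjusted p = 0.238) in LM3, where it was called lower without LM3 siNC replicate 3 (-0.18) and with LM3 siNC replicate 1 alone (-0.21), but was -0.05 without siNC replicate 1 and -0.06 without siFASRL replicate 2. The difference between lines was 0.60 (adjusted p = 0.000321). PML and SP100, components of PML nuclear bodies, fell in both lines, PML with -0.49 in HepG2 and -0.74 in LM3, and SP100 with -0.48 and -0.46. The difference for PML was called without HepG2 siFASRL replicate 3 (-0.32) or LM3 siFASRL replicate 1 (-0.31). It was -0.25 with all libraries and -0.16 without HepG2 siFASRL replicate 1. IRF2, which can repress interferon-stimulated genes, rose in HepG2 (0.30) and had -0.19 (adjusted p = 0.0691) in LM3, where it was called lower without LM3 siNC replicate 2 (-0.28), with LM3 siNC replicate 1 alone (-0.39) and in one fit of both lines (-0.19). Without LM3 siNC replicate 1 it was -0.10.

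Antiviral effectors were the largest class, with 15 listed. In HepG2 5 fell and 6 rose, with a median log2 fold change of 0.06, and in LM3 8 of the 11 tested fell and 3 rose, with a median of -0.56. Against the shares of all genes, 44.3% lower and 44.8% higher in HepG2 and 43.5% and 33.9% in LM3, only the count of decreases in LM3 lay above the background. That count includes OASL, which reached 1 in LM3 with siNC only, so that only a decrease could be called for it. The same held for GBP2 among the decreases in HepG2. OAS1 (gene 4938) makes the 2-5A messenger that activates RNase L, and was at 26.9, 27.1 and 25.2 in HepG2 siFASRL and 25, 19.9 and 23.9 in HepG2 siNC. In LM3 OAS1 was at 2.83, 3.81 and 3.33 with siFASRL and 15.5, 15.3 and 13.5 with siNC. The LM3 controls were all several times above the siFASRL libraries, whereas the HepG2 groups were separated by a narrow distance in the opposite direction. OAS1 fell in LM3 to 22.5% of siNC, -1.87 (95% CI -2.07 to -1.66, adjusted p = 7.43e-07), and the difference between lines was -2.07 (95% CI -2.36 to -1.78, adjusted p = 8.41e-08). The rise in HepG2, 0.20 (95% CI 0.01 to 0.39, adjusted p = 0.0437), was not called without HepG2 siNC replicate 2 (0.11), without siFASRL replicate 1 (0.19) or 2 (0.18), or with a pseudocount of 0.1, either rescaling or one fit of both lines (0.15 to 0.21).

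OAS3 lies 5254 bases from OAS1 on chromosome 12 and encodes another 2-5A synthetase. Its LM3 values were 11.4, 11.5 and 11.7 with siFASRL and 22.6, 23.2 and 22 with siNC, without overlap. OAS3 fell in LM3, -0.91 (95% CI -1.02 to -0.80, adjusted p = 1.15e-06), and had 0.06 (adjusted p = 0.386) in HepG2, with a difference of -0.97 (adjusted p = 6.29e-07). The HepG2 value was 0.005 without siNC replicate 2 and 0.11 without siNC replicate 3. OASL (gene 8638), a relative without synthetase activity, was at 220.2, 204 and 201 in HepG2 siFASRL and 201, 198 and 218 in HepG2 siNC. In LM3 OASL was at 0.50, 0.50 and 0.29 with siFASRL and 1.73, 2.08 and 1.66 with siNC. The HepG2 groups overlapped, and the LM3 groups lay apart at far lower values, where OASL reached 1 with siNC only. OASL fell in LM3, -0.98 (95% CI -1.17 to -0.80, adjusted p = 9.98e-06), had 0.02 (adjusted p = 0.805) in HepG2, and differed between lines by -1.0 (adjusted p = 7.08e-06). The siFASRL mean of OASL in LM3 was 23.6% of siNC, and at such low values log2(value + 1) compresses a fold change. Its HepG2 value ranged from -0.02 without siFASRL replicate 1 to 0.06 without siNC replicate 3.

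IFITM1 (gene 8519), which blocks the entry of enveloped viruses, was at 171, 189.8 and 187 in HepG2 siFASRL and 298, 301 and 325 in HepG2 siNC. IFITM1 in LM3 was at 1.65, 1.25 and 1.82 with siFASRL and 4.26, 5.52 and 4.77 with siNC. No library overlapped with the other group in either line. IFITM1 fell in HepG2, -0.75 (95% CI -0.90 to -0.61, adjusted p = 3.84e-06), and in LM3, -1.19 (95% CI -1.42 to -0.95, adjusted p = 1.24e-05). Its difference between lines was -0.43 (adjusted p = 0.0142), but 0.11 after quantile normalization and -0.29, not called, with LM3 siNC replicate 1 alone. IFITM2 and IFITM3 lie beside it on chromosome 11, with 4644 bases between IFITM2 and IFITM1 and 4403 between IFITM1 and IFITM3, and reads of these similar genes may have been divided among them by RSEM. IFITM3 rose in both lines (0.38 and 0.26), although after quantile normalization it was 0.11 and not called in HepG2 and -0.004 in LM3. IFITM2 had 0.01 in HepG2 and -0.13 (adjusted p = 0.0319) in LM3, a call lost on leaving out any of the LM3 libraries except siNC replicate 1 (-0.14 to -0.11), with LM3 siNC replicate 1 alone (-0.11) and with median-of-ratios scaling (-0.06).

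ISG20 (gene 3669), an exonuclease that degrades RNA, was at 29.2, 37 and 35.9 in HepG2 siFASRL and 15.7, 18.2 and 13.3 in HepG2 siNC. In LM3 ISG20 was at 3.73, 4.19 and 3.81 with siFASRL and 2.49, 3.42 and 2.64 with siNC. All siFASRL libraries were above all controls in both lines, by a wider margin in HepG2. ISG20 rose in HepG2, 1.07 (95% CI 0.81 to 1.33, adjusted p = 1.79e-05), and in LM3, 0.36 (95% CI 0.15 to 0.56, adjusted p = 0.00606), with a difference of -0.71 (95% CI -1.07 to -0.35, adjusted p = 0.00333). IFIT5, which binds viral RNA, rose in both lines (0.37 and 0.38). RSAD2 (viperin) rose in HepG2 (0.37, adjusted p = 0.00022), as did IFI27 (0.30, adjusted p = 0.0282), whose call was lost without HepG2 siFASRL replicate 2 (0.20) or siNC replicate 2 (0.20) and with either rescaling (0.26 and 0.27). IFI44 and GBP2 fell in HepG2 (-0.63 and -0.55), where GBP2 reached 1 with siNC only. The GBP2 mean with siFASRL was 49.3% of siNC in HepG2 and 10.7% in LM3, although its difference on log2(value + 1) was 0.43, and it was not called with a pseudocount of 0.1 (0.14) or after quantile normalization (0.06). IFI44 was at 0 in every LM3 library except siFASRL replicate 3 (0.03), so its difference between lines, 0.64, comes almost entirely from HepG2. SAMHD1, which depletes nucleotides, and XAF1, a pro-apoptotic gene, fell in both lines, SAMHD1 with -0.46 and -0.56 and XAF1 with -0.63 and -0.47. XAF1 in LM3 was -0.05 and not called after quantile normalization, which made its difference between lines a called 0.35. SAMD9, which restricts poxviruses, fell in LM3 (-0.66, adjusted p = 2.04e-05) and had 0.14 (adjusted p = 0.0696) in HepG2, with a difference of -0.81. In HepG2 SAMD9 was called higher after quantile normalization (0.23) and was 0.08 without siNC replicate 2.

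**Figure D3:**
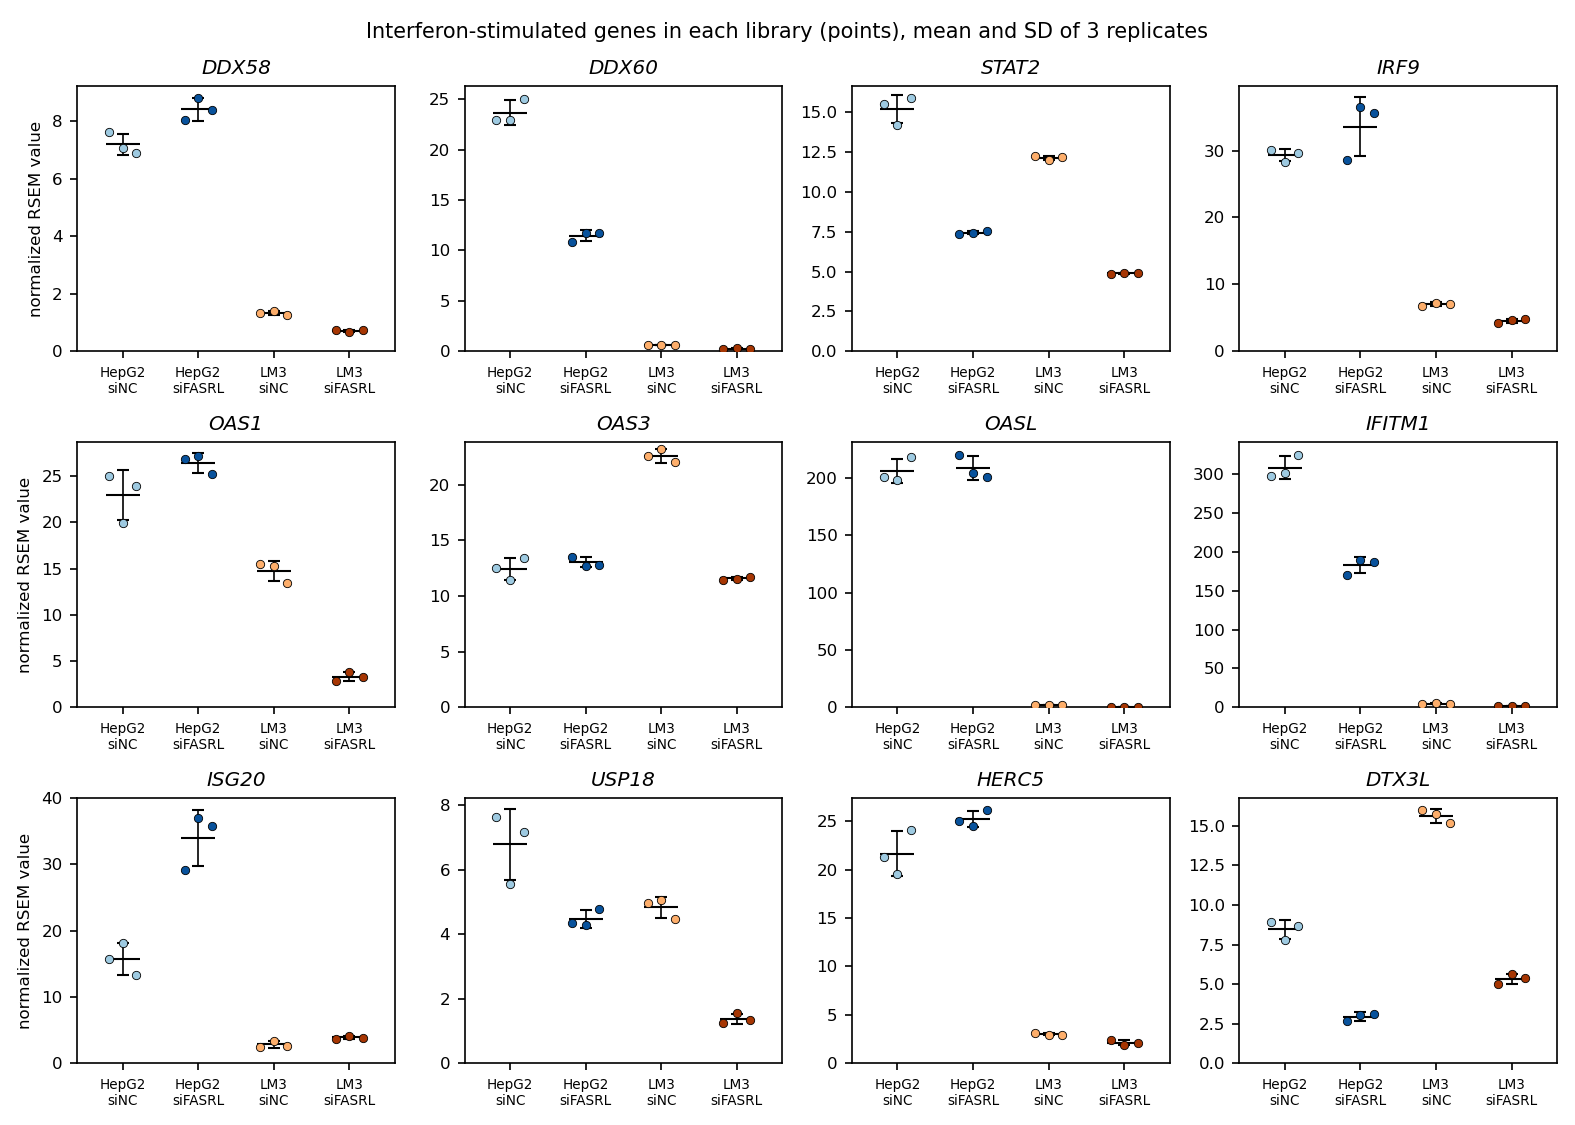
Normalized RSEM values of 12 members in every library (points), with the mean and SD of 3 replicates per group. OAS1, OAS3 and OASL are lower with siFASRL in LM3, STAT2, IFITM1, USP18 and DTX3L are lower in both lines, and ISG20 is higher in both lines. DDX60 is lower in HepG2, and in LM3 it lies below the minimum for the test, with siFASRL values under those of siNC.

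Of the genes that attach the ubiquitin-like protein ISG15 to its targets or remove it, 3 were listed. USP18 (gene 11274), which removes ISG15 and dampens receptor signaling, was at 4.35, 4.29 and 4.78 in HepG2 siFASRL and 7.64, 5.55 and 7.18 in HepG2 siNC. In LM3 USP18 was at 1.24, 1.56 and 1.34 with siFASRL and 4.98, 5.05 and 4.46 with siNC. The groups lay apart in both lines, with the widest distance in LM3. USP18 fell in HepG2, -0.50 (95% CI -0.72 to -0.28, adjusted p = 0.000867), and in LM3, -1.29 (95% CI -1.45 to -1.14, adjusted p = 1.14e-06), with a difference of -0.79 (95% CI -1.07 to -0.51, adjusted p = 0.000268). HERC5 (gene 51191), a ligase for ISG15, was at 25, 24.5 and 26.2 in HepG2 siFASRL and 21.3, 19.6 and 24.1 in HepG2 siNC. In LM3 HERC5 was at 2.37, 1.92 and 2.1 with siFASRL and 3.1, 2.95 and 2.94 with siNC. The siFASRL values were above the controls in HepG2 by a narrow distance and below them in LM3. HERC5 rose in HepG2, 0.22 (adjusted p = 0.0223), and fell in LM3, -0.35 (adjusted p = 0.00085), with a difference of -0.57 (adjusted p = 0.000516). The HepG2 call was lost without siFASRL replicate 3 (0.19), siNC replicate 1 (0.21) or siNC replicate 2 (0.15), and with either rescaling (0.17 and 0.17). After quantile normalization the LM3 effect was 0.03 and the difference was -0.14, not called. UBE2L6, which carries ISG15 to its ligase, was called higher in HepG2 (0.16, adjusted p = 0.0448). That call was lost without siFASRL replicate 1 (0.12) or 2 (0.17), or siNC replicate 1 (0.18) or 2 (0.11), with a pseudocount of 0.1 (0.17) and with either rescaling (0.12 and 0.14), and UBE2L6 was near 0 in LM3.

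The 5 listed genes of ADP-ribosylation fell in both lines, as did 36.0% of all genes tested in both. DTX3L (gene 151636), a ubiquitin ligase that pairs with PARP9, was at 2.64, 3.05 and 3.14 in HepG2 siFASRL and 8.93, 7.78 and 8.66 in HepG2 siNC. In LM3 DTX3L was at 5.0, 5.64 and 5.4 with siFASRL and 16, 15.8 and 15.2 with siNC. Each siFASRL library was far below every control of the same line. DTX3L fell in HepG2, -1.26 (95% CI -1.42 to -1.1, adjusted p = 3.29e-07), and in LM3, -1.39 (95% CI -1.52 to -1.26, adjusted p = 3.63e-07). PARP10 (gene 84875), a mono-ADP-ribosyltransferase, was at 5.97, 6.91 and 6.92 in HepG2 siFASRL and 9.6, 12.4 and 10.1 in HepG2 siNC. In LM3 PARP10 was at 5.66, 5.27 and 5.37 with siFASRL and 9.41, 13.3 and 12.5 with siNC. The groups did not overlap in either line, and the controls varied more than the siFASRL libraries. PARP10 fell in HepG2, -0.61 (95% CI -0.83 to -0.40, adjusted p = 0.000169), and in LM3, -0.97 (95% CI -1.22 to -0.72, adjusted p = 5.56e-05). PARP9, PARP12 and PARP14, further members of this enzyme family, had log2 fold changes of -0.68, -0.60 and -0.49 in HepG2 and -0.90, -0.68 and -0.64 in LM3. Limma called the difference between lines for 0 of these 5 genes, and 2 of them had an unadjusted p under 0.05. The difference for PARP10 was called without HepG2 siNC replicate 2 (-0.46) or LM3 siNC replicate 1 (-0.49). PARP9 and DTX3L overlap by 447 bases on opposite strands of chromosome 3, and it is not known if reads were counted by strand, so reads of that stretch cannot be told apart.

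All 6 antigen presentation genes were listed, of which 5 fell and 1 rose in HepG2 (44.3% and 44.8% of all genes), and 3 fell and 1 rose in LM3 (43.5% and 33.9%). TAPBP (gene 6892), which encodes tapasin, the bridge between class I molecules and the peptide transporter, was at 32.1, 27.6 and 29.5 in HepG2 siFASRL and 63.7, 66.9 and 65.5 in HepG2 siNC. In LM3 TAPBP was at 16.7, 16 and 16.2 with siFASRL and 36, 36.7 and 37.8 with siNC. Every siFASRL library was far below the controls in both lines. TAPBP fell in HepG2, -1.11 (95% CI -1.26 to -0.97, adjusted p = 4.08e-07), and in LM3, -1.13 (95% CI -1.24 to -1.02, adjusted p = 4.58e-07), to 45.4% and 44.2% of siNC. The difference between lines was -0.01 (95% CI -0.18 to 0.15, adjusted p = 0.889). TAP1, a subunit of that transporter, rose in HepG2 (0.25, adjusted p = 0.00119) and had -0.07 (adjusted p = 0.25) in LM3, or -0.03 without LM3 siFASRL replicate 1.

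HLA-B (gene 3106), a class I heavy chain, was at 59.9, 57.1 and 54 in HepG2 siFASRL and 95.2, 96.2 and 91.8 in HepG2 siNC. In LM3 HLA-B was at 198, 215 and 211 with siFASRL and 233, 240.3 and 230.5 with siNC. The groups did not overlap in either line, but the distance was narrow in LM3. HLA-B fell in HepG2, -0.72 (95% CI -0.85 to -0.59, adjusted p = 2.88e-06), and in LM3, -0.18 (95% CI -0.30 to -0.06, adjusted p = 0.0143), with a difference of 0.54 (95% CI 0.38 to 0.70, adjusted p = 5.92e-05). Its LM3 call was lost without LM3 siFASRL replicate 1 (-0.14) or siNC replicate 2 (-0.16), with LM3 siNC replicate 1 alone (-0.17) and with median-of-ratios scaling (-0.10).

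HLA-C (gene 3107), the heavy chain encoded 81782 bases from HLA-B, was at 87.3, 97.4 and 90.5 in HepG2 siFASRL and 136, 141 and 128 in HepG2 siNC. In LM3 HLA-C was at 138, 143 and 132 with siFASRL and 133, 149 and 151 with siNC. The LM3 groups overlapped and the HepG2 groups did not. HLA-C fell in HepG2, -0.55 (95% CI -0.70 to -0.41, adjusted p = 2.94e-05), and had -0.07 (adjusted p = 0.363) in LM3, where it was called lower without siNC replicate 1 (-0.12) and after quantile normalization (-0.19), and was -0.04 to -0.03 without siFASRL replicate 3 or siNC replicate 2 or 3. The difference was 0.49 (adjusted p = 0.000705). HLA-B and HLA-C are similar in sequence and vary between people, so their reads may have been divided between them.

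HLA-E (gene 3133), the ligand of the receptor NKG2A on natural killer cells, was at 39, 37.1 and 36.8 in HepG2 siFASRL and 52.5, 53.2 and 51.8 in HepG2 siNC. In LM3 HLA-E was at 41.4, 43.9 and 43.4 with siFASRL and 35.7, 37.4 and 37.1 with siNC. The siFASRL values lay below the controls in HepG2 and above them in LM3. HLA-E fell in HepG2, -0.47 (95% CI -0.59 to -0.35, adjusted p = 2.43e-05), and rose in LM3, 0.22 (95% CI 0.10 to 0.33, adjusted p = 0.00393), and the difference was 0.69 (95% CI 0.55 to 0.83, adjusted p = 2.3e-06). B2M (gene 567), the light chain shared by class I molecules, was at 517, 563 and 547 in HepG2 siFASRL and 746, 678 and 737 in HepG2 siNC. In LM3 B2M was at 826, 873 and 905 with siFASRL and 986, 962 and 979 with siNC. The siFASRL values were lower in both lines without overlap. B2M fell in HepG2, -0.41 (95% CI -0.55 to -0.27, adjusted p = 0.000171), and in LM3, -0.17 (95% CI -0.29 to -0.05, adjusted p = 0.0169), with a difference of 0.24 (adjusted p = 0.0223). The LM3 call was lost without siFASRL replicate 1 (-0.13) and with median-of-ratios scaling (-0.10), and that of the difference without HepG2 siFASRL replicate 1, HepG2 siNC replicate 1 or LM3 siFASRL replicate 3 (0.21 each) and with LM3 siNC replicate 1 alone (0.22).

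**Figure D4:**
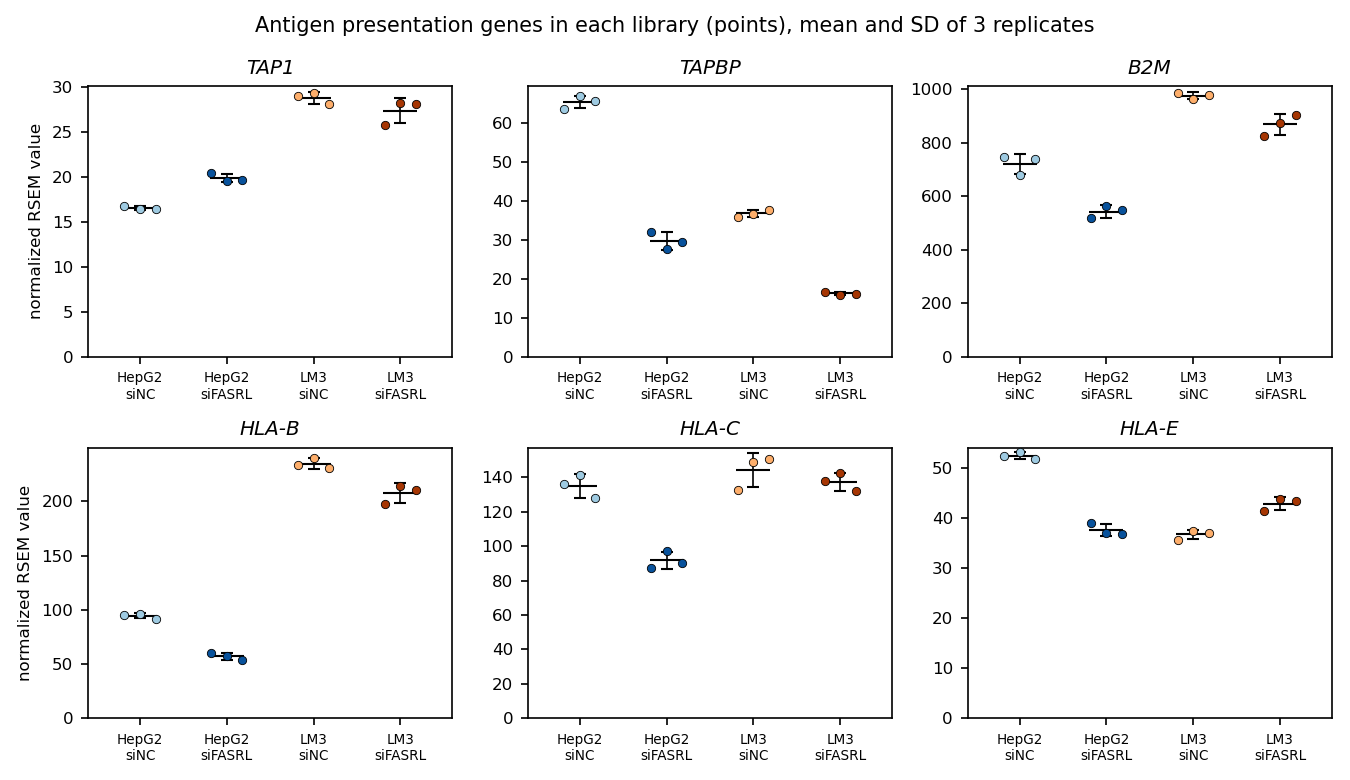
Normalized RSEM values of the 6 antigen presentation genes in every library (points), with the mean and SD of 3 replicates per group. TAPBP is lower with siFASRL in both lines, and HLA-E is lower in HepG2 and higher in LM3.

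The lines also differed in the level from which these genes started. Between the control groups, 19 of the 33 members tested in both lines were lower in LM3 siNC than in HepG2 siNC (37.0% of 7349 genes) and 11 were higher (45.1%). Over all 40, 26 were lower (42.1% of 8285 genes) and 11 higher (41.5%), but the other 7 were under the minimum in LM3, so that only a lower level there could be called. The median log2 difference was -0.41 over the 33 members and 0.08 over genes tested in both lines. Over the 40 it was -0.60, and over all genes -0.002, although quantile normalization moved the latter to 0.16. OASL, which was at 206 ± 10.9 in HepG2 siNC and 1.82 ± 0.23 in LM3 siNC (mean ± SD, n = 3), differed most, by -6.2 (95% CI -6.36 to -6.03, adjusted p = 2.06e-16). IFITM1 differed by -5.73. NMI (1.51), HLA-B (1.3) and PARP12 (1.25) were higher in LM3 siNC.

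The wider pathway was examined with a list of 84 genes, of which 47 were listed. In HepG2 21 of the 46 tested were lower and 22 higher, and in LM3 18 of 42 were lower and 16 higher. The median log2 fold change was 0.10 in HepG2 and -0.03 in LM3. These shares and medians were close to those of all genes. The difference between lines was called lower in LM3 for 16 of 46 (27.2% of all genes) and higher for 10 (19.5%), or for 15 and 7 of the 42 tested in both lines (27.5% and 15.0%). No gene of the 8 interferon ligands was listed, so interferon expression could not be read from these values. Among 14 antigen processing genes tested in HepG2, 11 fell and 3 rose, and among 13 tested in LM3, 8 fell and 2 rose, with decreases above and increases below the shares of all genes (44.3% and 44.8% in HepG2, 43.5% and 33.9% in LM3). ERAP2, among the decreases in LM3, reached 1 there with siNC only. Of 9 NF-kB genes, 1 fell and 7 rose in HepG2 and 1 fell and 5 rose in LM3, so that increases lay above the same shares and decreases below them.

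HLA-DMA, which loads peptides onto class II molecules, was at 1.24, 1.12 and 1.04 in HepG2 siFASRL and 4.56, 4.07 and 4.89 in HepG2 siNC. In LM3 HLA-DMA was at 0.44, 0.90 and 0.52 with siFASRL and 2.29, 1.54 and 3.03 with siNC. All siFASRL values were below all controls in both lines, and in LM3 HLA-DMA reached 1 with siNC only, so that only a decrease could be called. HLA-DMA fell in HepG2, -1.37 (95% CI -1.52 to -1.21, adjusted p = 1.86e-07), and in LM3, -1.01 (95% CI -1.38 to -0.63, adjusted p = 0.000546). MYD88, an adaptor of Toll-like receptors, was at 5.66, 5.61 and 5.99 in HepG2 siFASRL and 10, 9.46 and 9.41 in HepG2 siNC. In LM3 MYD88 was at 5.2, 5.14 and 5.58 with siFASRL and 12.4, 13.6 and 14 with siNC. These groups too lay apart in both lines. MYD88 fell in HepG2, -0.65 (adjusted p = 3.58e-06), and further in LM3, -1.18 (adjusted p = 1.03e-06), with a difference of -0.53 (95% CI -0.70 to -0.36, adjusted p = 0.000114).

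SOCS3, which inhibits JAK kinases, was at 69, 78.2 and 74.8 in HepG2 siFASRL and 29.8, 32.4 and 30.1 in HepG2 siNC. In LM3 SOCS3 was at 3.81, 3.79 and 3.79 with siFASRL and 3.19, 2.81 and 3.27 with siNC. The siFASRL values were higher in both lines without overlap. SOCS3 rose in HepG2, 1.24 (95% CI 1.09 to 1.38, adjusted p = 2.17e-07), and less in LM3, 0.23 (adjusted p = 0.00545), with a difference of -1.0 (adjusted p = 8.65e-07). PTPN6, a phosphatase that acts on JAK kinases, was at 3.69, 3.36 and 2.56 in HepG2 siFASRL and 8.53, 8.92 and 8.62 in HepG2 siNC. It lay apart between the groups, fell in HepG2, -1.21 (95% CI -1.43 to -1.0, adjusted p = 1.94e-06), and was under 1 in every LM3 library.

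JAK1, a kinase of the interferon receptors, was at 58.6, 56.2 and 58.4 in HepG2 siFASRL and 42.8, 42 and 43.5 in HepG2 siNC. In LM3 JAK1 was at 49.4, 50.9 and 51.4 with siFASRL and 55.8, 53 and 54 with siNC. The siFASRL values were above the controls in HepG2 and slightly below them in LM3. JAK1 rose in HepG2, 0.42 (95% CI 0.31 to 0.54, adjusted p = 4.29e-05), and had -0.10 (adjusted p = 0.0913) in LM3, where it was called lower after quantile normalization (-0.19). IFNAR1, a chain of the type I interferon receptor, was at 16.9, 15.5 and 17.4 in HepG2 siFASRL and 19.4, 18.4 and 21.1 in HepG2 siNC. In LM3 IFNAR1 was at 18.6, 17.1 and 18.2 with siFASRL and 24.9, 24.8 and 23.8 with siNC. The siFASRL values were below the controls in both lines. IFNAR1 fell in HepG2, -0.23 (adjusted p = 0.0109), a call lost without siFASRL replicate 2 (-0.18), and in LM3, -0.42 (adjusted p = 0.000108).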

How the data were processed

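RNA-seq values of 12 libraries (HepG2 and LM3, siFASRL and siNC, 3 replicates each, grouped by the sample labels) were analysed. The authors selected poly(A) RNA, filtered reads with SOAPnuke, mapped them with HISAT2 and Bowtie2 and computed expression with RSEM. Values deposited by the authors are RSEM values normalized for length and library, an other unit than counts, with FPKM or TPM left unsaid. Depth is unknown, so precision was taken from the spread of the 3 replicates. The labels name hg19, while the files name chromosomes as in GRCh38. In the files 17 symbols turned into dates were restored, and 6 columns that repeat LM3 values were not used.

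Limma (3.58.1, R 4.3.3) was fitted across all listed genes on log2(value + 1), keeping genes that reached 1 in 3 or more libraries of the fit, with Benjamini-Hochberg adjustment over all genes tested. Each line was fitted on its own 6 libraries. The effect in LM3 minus that in HepG2, and LM3 siNC against HepG2 siNC, came from one fit of all 12. A gene was called at an adjusted p under 0.05, and counted again where the log2 fold change was also 1 or more in size. Confidence intervals are 95% intervals of the same fits. The study says that its cell line experiments were repeated, but not whether these 3 RNA-seq replicates were separate cultures, so p-values measure the spread between these samples. With 3 against 3 the smallest two-sided exact permutation p is 0.1, so no such test was used for single genes. The fits were also run on simulated data, from which no result is drawn here.

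The members and the lists were chosen with earlier results of these data known. Per-library values are given for the 8 called members with the largest change in each line, called members with opposite directions and a called difference, HLA-B, HLA-C, HLA-E, B2M, STAT2, IRF9 and IRF1, called pathway genes with a log2 fold change of 1 or more in size (at most 6), and JAK1 and IFNAR1. OAS3 and IFIH1 were given this way after their values were seen, as were the roles by which genes are grouped. Alternatives were the pseudocount, the filter, median-of-ratios and quantile scaling, a replicate block, one fit of both lines and leaving out each replicate. LM3 siNC replicate 1 alone, a filter within each line, and the alternatives for the control groups, for the pathway medians and for counts over both lines were chosen after seeing the data. Promoters, starts and gene positions are from RefSeq (GRCh38.p14). Python (3.11.15), pandas (2.3.3) and matplotlib (3.10.9) were used.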

Additional observations from a re-analysis of the deposited data

Results flagged for a closer look

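The FASRL knockdown effect differed between the lines for 25 of the 40 listed members, by the interaction of line and siRNA in limma. In that fit 27.2% of all 8285 genes had a lower effect in LM3 and 19.5% a higher one. Values are the log2 fold change in LM3 minus that in HepG2, and each member named below was selected for its own adjusted p under 0.05.

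The effect was lower in LM3 for 16 genes. The difference was -2.07 for OAS1, -1.06 for IFIH1, -1.0 for OASL, -0.97 for OAS3 and -0.81 for SAMD9. It was -0.79 for USP18, -0.71 for IRF9, -0.71 for ISG20, -0.64 for DDX58 and -0.57 for HERC5. It was -0.49 for IRF2, -0.43 for IFITM1, -0.39 for RSAD2, -0.39 for EIF2AK2, -0.33 for TAP1 and -0.22 for STAT2.

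The effect was higher in LM3 for 9 of the 40 members (22.5%), near the share of all genes (19.5%). The difference was 0.69 for HLA-E, 0.64 for IFI44, 0.63 for DDX60, 0.60 for NMI and 0.54 for HLA-B. It was 0.49 for HLA-C, 0.43 for GBP2, 0.37 for IRF1 and 0.24 for B2M. DDX60, GBP2, IFI44, IFIH1 and RSAD2 were too low in LM3 to be tested within that line, and for low values log2(value + 1) compresses a fold change. With a pseudocount of 0.1 the difference was not called for DDX60 (0.06), GBP2 (0.14) or RSAD2 (-0.52), nor was that of GBP2 after quantile normalization (0.06). GBP2 with siFASRL was at 10.7% of siNC in LM3 and 49.3% in HepG2, so its ratio ran opposite to its difference.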

How the results depend on the processing

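Counts of members called within a line or by the difference between lines, whatever the size of the change, stayed within 1.5 times those reported. Members called lower in HepG2 (23) ranged from 22 to 23 on leaving out 1 replicate and from 20 to 23 otherwise, and those lower in LM3 (25) from 22 to 24 and from 19 to 28. Members called higher in HepG2 (12) ranged from 8 to 12 in both cases, and those higher in LM3 (4) stayed at 4 on leaving out 1 replicate and ranged from 3 to 4 otherwise. Members with an effect lower in LM3 (16) ranged from 16 to 17 and from 13 to 16, and those with an effect higher in LM3 (9) from 7 to 9 and from 6 to 9.

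Counts over members tested in both lines moved further, and some settings changed which members were tested. With a minimum of 5, 25 members were tested in both lines, against 33 as reported, and 40 with no filter or in one fit. GBP2 and IFI44 entered the count of 5 in one fit, and DDX60 and GBP2 the count of 5 with no filter. These counts are thus not over the same genes, and any other reason for their movement was not tested. Those lower in LM3 and not in HepG2 (8) numbered 5 with a minimum of 5 and 5 to 8 on leaving out 1 replicate. With the difference also called (7) they numbered 4 with that minimum. Those lower in HepG2 and not in LM3 (3, each with the difference called) numbered 6 with median-of-ratios scaling, 5 in one fit and 2 to 5 on leaving out 1 replicate, with or without the call of the difference. Members lower in both and further in LM3 (4) numbered 2 with a minimum of 5, 1 after quantile normalization and 2 with LM3 siNC replicate 1 alone. Those further in HepG2 (3) numbered 5 with no filter, 0 with median-of-ratios scaling, 1 with LM3 siNC replicate 1 alone and 1 to 4 on leaving out 1 replicate. Members with opposite directions (4) numbered 2 with a minimum of 5, 2 with median-of-ratios scaling, 2 after quantile normalization and 2 to 4 on leaving out 1 replicate. With a minimum of 5, members with an effect lower in LM3 (14) numbered 8 and those lower in LM3 siNC than in HepG2 siNC (19) 12. Those lower in both lines (17) ranged from 15 to 18 on leaving out 1 replicate and from 14 to 19 otherwise.

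Members lower by a log2 fold change of 1 or more numbered 4 in HepG2 with a pseudocount of 0.1 and 3 in LM3 after quantile normalization. Those higher by 1 or more in HepG2 ranged from 0 to 1 on leaving out 1 replicate. The members' median was -0.34 in HepG2 after quantile normalization. In LM3 it was -0.68 with a pseudocount of 0.1, -0.45 with no filter, -0.37 after quantile normalization and -0.45 in one fit of all libraries. The pathway median in HepG2 (0.10) was 0.221 with a minimum of 5, 0.055 with median-of-ratios scaling and 0.023 after quantile normalization. With a minimum of 5 it was 0.033 in LM3 and 0.23 between the control groups. In LM3 it was -0.09 with no filter, 0.043 with median-of-ratios scaling, -0.09 in one fit, 0.13 with LM3 siNC replicate 1 alone, and -0.05 to 0.045 on leaving out 1 replicate. The pathway median in LM3, -0.03 as reported, thus turned positive in some of these, and the cause was not tested.

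Values near 0 that were not called could change sign. In HepG2 IFITM2 was 0.01, but -0.10 after quantile normalization, and OASL was 0.02, but -0.03 with median-of-ratios scaling. Other directions of single genes and of all genes that reversed were the following, and the cause was not tested. After quantile normalization IFITM3 was -0.004 and HERC5 0.032 in LM3, the median of all genes in LM3 was 0.029, and the difference between lines was 0.106 for IFITM1, 0.002 for STAT2 and 0.052 for ERAP1. With median-of-ratios scaling the median difference of all genes was 0.025. With a pseudocount of 0.1 the difference was -0.056 for TAPBPL. With LM3 siNC replicate 1 alone NFKBIA was 0.154 and PSMB10 0.167 in LM3.

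With the replicate number as a block, 23 members were lower and 12 higher in HepG2, 24 and 4 in LM3, and the difference was lower in LM3 for 16 and higher for 8. Among the members, the block ended the calls of IFITM2 in LM3 (-0.13) and of the difference for B2M (0.24). Whether same-numbered replicates were handled as pairs is not stated. Correlations of their deviations from the group mean were 0.342, 0.393 and -0.222 in HepG2 and -0.093, 0.132 and -0.207 in LM3.

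How the listed genes were chosen is not stated. Shares called and adjusted p-values are over this subset, and the 18 unlisted members are absent from each count. Without counts, the counting error of low values could not be estimated. A change under the minimum of 1 could not be called within a line.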
